A study of Acorus calamus with 8 samples.

Results

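Rhizome was compared with leaf in sweet flag (Acorus calamus), a wetland monocot, a month after the study's cutting step. The comparison took 2 matched pairs: leaf and rhizome of explants whose leaves had been left whole (uncut), and leaf and rhizome of explants whose leaves had been cut back (cut). All explants grew on MS medium, a standard plant culture medium, with the synthetic auxins 2,4-D at 2 mg/l and NAA at 0.5 mg/l, so every library here comes from auxin-treated tissue. The study sought candidate genes for rhizome induction and deposited 8 RNA-seq libraries in all. They cover leaf and rhizome, cut and uncut, at 4 days and at a month, with 1 library for each combination; the labels do not say how many plants were pooled. The members are assembled transcript features, named Unigene or CL with a contig number, that carried at least 50 counts in at least 1 of the 4 month libraries and moved the same way in both pairs. Of 24636 features in the 8 tables, 44 described as ribosomal RNA were left out, 5665 of the other 24592 reached 50 counts, and 4300 of those moved alike: 1353 were higher and 2947 lower in rhizome. The remaining 1365 moved in opposite ways or were equal in 1 pair. Feature names below are the deposited best-match descriptions.

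A leaf is a source organ: its chloroplasts capture light, fix carbon and export sucrose. A rhizome is a creeping underground stem that bears buds and roots and receives that sugar, and in sweet flag it is the organ that stores starch and aromatic oil. Non-green stem tissue carries proplastids and amyloplasts in place of mature chloroplasts, and its growing tips keep a meristem of dividing cells. In bulk tissue, fewer cells of a type and less RNA per cell cannot be told apart.

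The 4 libraries held between 9637907 and 11555758 counts, but most of these were ribosomal RNA. Other features kept 2891543 counts in uncut leaf, 1772046 in cut leaf, 555466 in uncut rhizome and 575857 in cut rhizome, so depth differed with tissue and its part in the results was not tested apart from thinning. In uncut leaf 5476 features reached 50 counts, against 2198 in cut leaf, 1523 in uncut rhizome and 1130 in cut rhizome, and the rule of 50 counts therefore admits leaf-rich features more readily. Every library was also thinned to the same total of counts outside ribosomal RNA. Features at least 4-fold apart in both pairs then numbered 103 higher and 184 lower in rhizome, against 101 and 491 at the deposited depth. Organelle features took 41.3% and 56.7% of these counts in uncut and cut leaf and 14.2% and 18.7% in uncut and cut rhizome. Thinning therefore did not make the tissues equally deep in the remaining features. An undescribed feature, Unigene19161, took 7.71% and 12.1% of the counts outside ribosomal RNA in uncut and cut leaf and 21.9% and 34.4% in uncut and cut rhizome.

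Counts were scaled by TMM, which sets the bulk of features equal between libraries, so every difference below is relative to that bulk (median fitted difference of -0.03 on the log2 scale). The edgeR quasi-likelihood test with the cutting state as the block, with Benjamini-Hochberg adjustment over 9258 features tested, called 1851 features at the 0.05 threshold, which is 20.0% of them. Of these 775 were higher in rhizome (8.37%) and 1076 were lower (11.6%). All 1851 moved the same way in both pairs, which the test largely selects for, so this is not a separate check. Among the 4300 members, 285 were called higher and 1026 lower. A further 127 features with 50 counts did not enter the test, since the low-count filter looks for counts in more than 1 library. The split depends on the scaling: scaled by library totals, 1849 features were called higher and 527 lower (median difference 0.69), and on log2(FPKM + 1) 161 were called higher and 2245 lower (median difference -0.88).

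Without replicates, the test rests on 1 residual degree of freedom and on the spread shared between features. The pairs can be set beside each other, but both enter the same test. The log2 ratios of the 2 pairs differed by a median of 0.65, and their Pearson correlation across the 5665 features was 0.706, given as a description since both pairs share the scaling and features are not independent. By size alone, 592 of 5665 features (10.5%) were at least 4-fold apart in the same direction in both pairs, 101 higher in rhizome (1.78%) and 491 lower (8.67%), with any count under 3 taken as 3. Of these 592 features, 582 were also called by the test, which used the same libraries. This split depends on the scaling too, with 205 higher and 211 lower under library totals and 20 and 572 on log2(FPKM + 1). The calls lean on single libraries: of the 1311 called members, 146 of 1310 that could be tested were still called without the uncut rhizome library, 472 of 1311 without cut rhizome, 594 of 1143 without uncut leaf and 732 of 1304 without cut leaf.

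**Figure D1:**
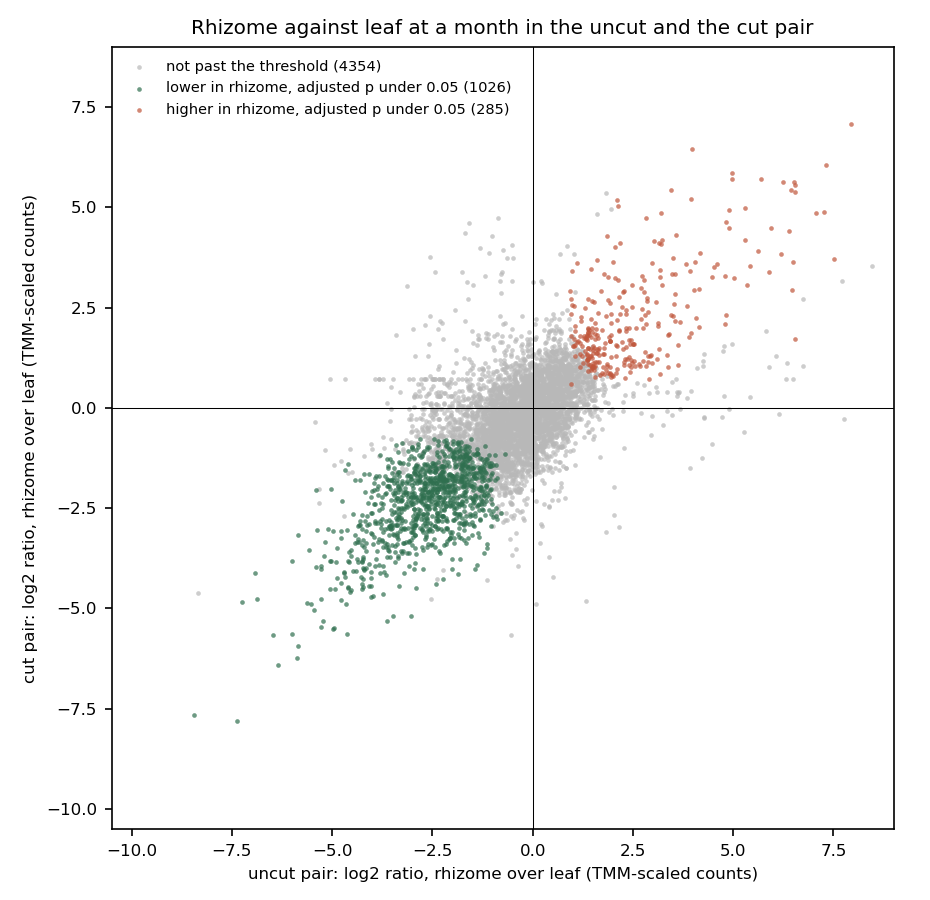
Each point is a feature with at least 50 counts in 1 month library; the axes give the log2 ratio of rhizome over leaf in the uncut pair (horizontal) and the cut pair (vertical) after TMM scaling. The 285 features called higher sit in the upper right and the 1026 called lower in the lower left, and the features not past the threshold are in grey.

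Most features for light harvesting were lower in rhizome than in leaf. Of 56 tested features of the photosystems, light-harvesting proteins and electron transport, 41 were lower in rhizome, 0 were higher and 15 did not pass, with a median log2 difference of -3.53. Summed over the 84 features of that list, the level was 6478 CPM (counts per 1e6 counts of the scaled library) in uncut leaf and 9012 in cut leaf, against 631.8 in uncut rhizome and 1080 in cut rhizome. Of the 84 features, 6 and 8 had no count in uncut and cut leaf, and 27 and 19 had none in uncut and cut rhizome. Chlorophyll a-b binding protein 8 (CL1624.Contig2), an antenna protein of photosystem I, stood at 552.4 CPM in uncut leaf and 608.3 in cut leaf, and at 3.64 in uncut rhizome and 21.3 in cut rhizome. Both leaf libraries lay far above both rhizome libraries, with a fitted log2 difference of -5.78 ± 0.62 (approximate SE, edgeR adjusted p = 0.000309). PsbW (Unigene7021), a small subunit of the photosystem II reaction centre, went from 305.0 and 225.1 CPM in uncut and cut leaf to 9.70 and 1.64 in uncut and cut rhizome. The Rieske iron-sulfur subunit of the cytochrome b6-f complex (Unigene8227), which links the photosystems, differed by -4.52 ± 0.50. The leaf isozyme of ferredoxin--NADP reductase (CL2368.Contig2), the last step of the chain, had 269 and 147 counts in uncut and cut leaf and 0 and 3 in uncut and cut rhizome. PGR5-like protein 1A (Unigene7544), which takes part in cyclic electron flow, differed by -5.86 ± 0.60.

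The Calvin cycle and photorespiration list had 20 features lower and 3 higher of 35 tested, with a median of -2.74. Rubisco small chain (Unigene10191), part of the enzyme that fixes carbon dioxide, had 1766 counts in uncut leaf and 1099 in cut leaf, and no count in either rhizome library. Taking 3 counts over both rhizome libraries as the floor, it was at least 348-fold lower in rhizome (adjusted p = 6.5e-06). Rubisco activase (CL1693.Contig2), which reopens blocked Rubisco sites, had 623 counts in uncut leaf, 372 in cut leaf and 0 in both rhizome libraries, at least 121-fold lower. The regulator CP12-1 (Unigene9391), which binds Calvin cycle enzymes in the dark, stood at 297.2 CPM in uncut leaf, 420.2 in cut leaf, 3.64 in uncut rhizome and 3.28 in cut rhizome. Serine--glyoxylate aminotransferase (Unigene7202), a peroxisomal enzyme of photorespiration, had 494 and 146 counts in uncut and cut leaf and 2 and 1 in uncut and cut rhizome, a 77.8-fold ratio with an exact 95% counting interval of 26.5 to 378. Factors that build or maintain this machinery were low as well. The Rubisco assembly chaperone RbcX2 (Unigene102) differed by -6.01 ± 0.56. The chloroplast RNA-binding protein CSP41b (Unigene5092) had 403 and 196 counts in uncut and cut leaf and 0 in both rhizome libraries, at least 72.8-fold lower. The 3 exceptions, picked out after their values were seen, were a glycine cleavage H-protein (Unigene10308) and 2 features described as alpha carbonic anhydrase 7 (CL665.Contig1 and Unigene2877), all with under 50 counts in every library. The calls of all 11 named lower features held without each of the 4 libraries in turn. DESeq2's Wald test did not call Rubisco activase or CSP41b, both at 0 in rhizome. Both lists kept their direction under library totals (1 higher and 35 lower; 3 higher and 17 lower) and on log2(FPKM + 1) (0 and 47; 2 and 26).

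**Figure D2:**
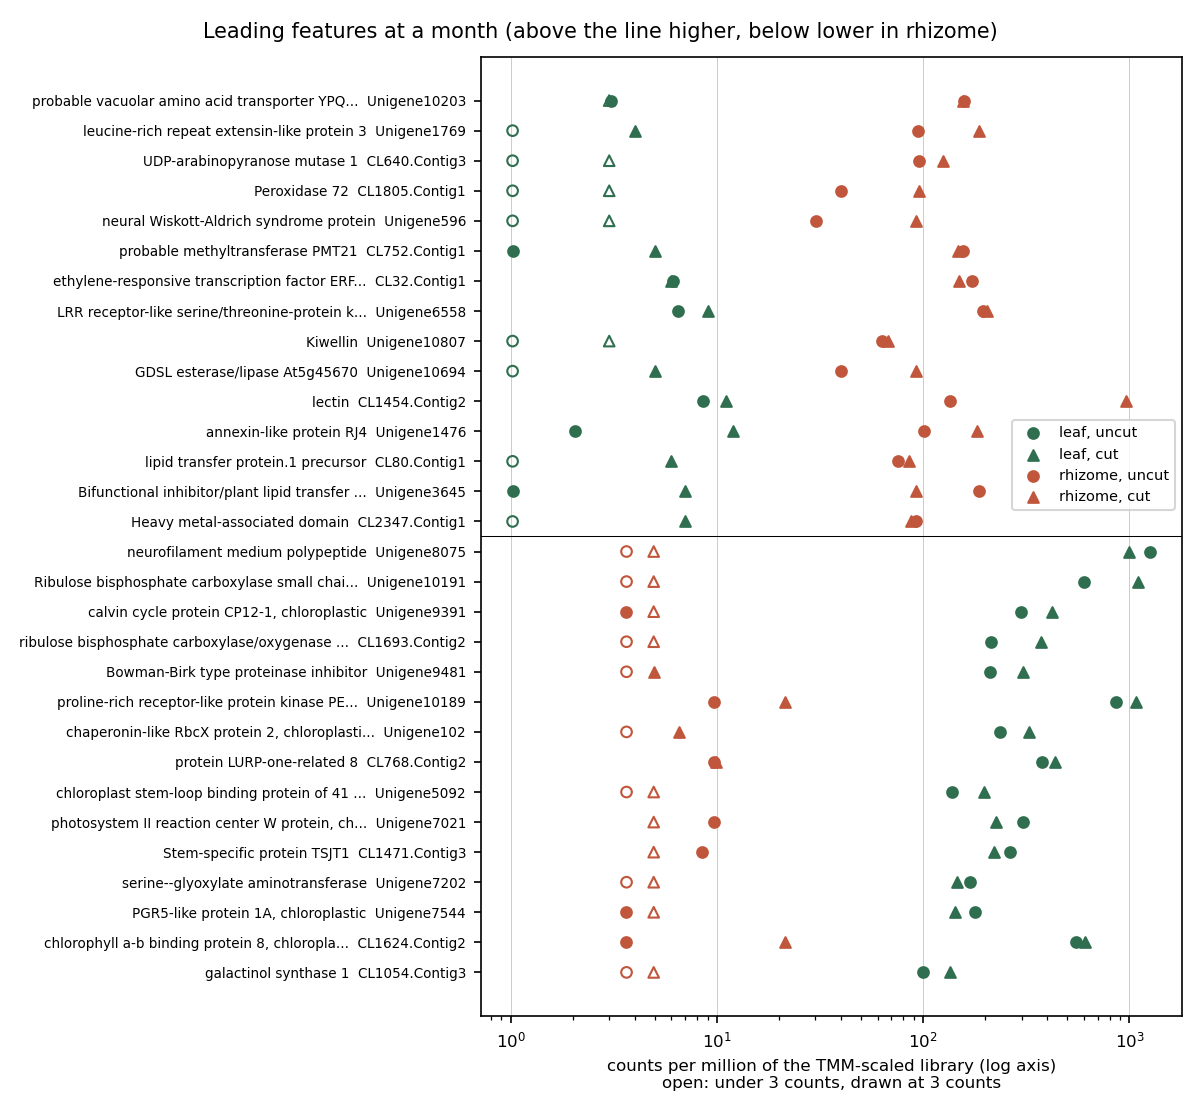
Level of the 15 leading features per direction in the 4 month libraries, in CPM on a log axis; open symbols stand for fewer than 3 counts and are drawn at 3 counts. The features were chosen for a large difference in both pairs, so leaf (green) and rhizome (red) separate by selection. Rubisco small chain stood at 602.5 and 1100 CPM in leaf with no count in rhizome. Lectin CL1454.Contig2 stood at 8.53 and 11.01 CPM in leaf and 134.6 and 967.1 in rhizome.

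Leaf was also rich in several proteins outside photosynthesis. The Bowman-Birk proteinase inhibitor Unigene9481, of a family that blocks serine proteases, had 617 and 303 counts in uncut and cut leaf and 1 and 3 in uncut and cut rhizome. Galactinol synthase 1 (CL1054.Contig3), the first step towards raffinose sugars, had 293 and 135 counts in uncut and cut leaf and 2 and 0 in uncut and cut rhizome, a ratio of 78.1 (exact 95% counting interval 21.5 to 647). Unigene8075, whose best match is a neurofilament polypeptide, a description that gives no plant role, had 3690 and 990 counts in uncut and cut leaf against 0 and 1. A feature matched to the receptor-like kinase PERK1 (Unigene10189), a LURP-one-related protein (CL768.Contig2) and the stem-specific protein TSJT1 (CL1471.Contig3) differed by -6.03 ± 0.47, -5.36 ± 0.49 and -5.34 ± 0.55. The calls of these 6 features held without each library in turn.

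Organelle-encoded transcripts did not move together. Of 60 tested plastid features 24 were lower and 9 higher in rhizome, with a median of -0.87, while of 83 mitochondrial features 47 were higher and 0 lower, with a median of 2.13. Summed, mitochondrial features stood at 4956 and 5274 CPM in uncut and cut leaf and at 13610 and 13100 in uncut and cut rhizome. Plastid features took 40.8% and 56.4% of the counts outside ribosomal RNA in uncut and cut leaf and 12.1% and 17.3% in uncut and cut rhizome. The contig CL299.Contig6 alone took 27.9% and 41.6% in leaf and 4.48% and 9.69% in rhizome; whether it holds ribosomal RNA could not be told from the files. Under library totals the plastid balance turned, with 15 lower and 17 higher (median -0.13), while on log2(FPKM + 1) 31 were lower and 1 higher. On the latter scale 1 mitochondrial feature was higher and 0 lower (median 0.26, against -0.88 over all features). DESeq2's Wald test called 25 mitochondrial features higher and 0 lower. A fit over all 8 libraries called 1 higher and 0 lower (median 1.94). For plastid features the Wald test gave 21 lower and 5 higher, and the 8-library fit 10 lower and 1 higher (median -0.05).

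In the chlorophyll and carotenoid list 10 of 22 tested features were lower in rhizome, 0 were higher and 12 did not pass, with a median of -1.77 (library totals gave 6 lower and 1 higher). Protochlorophyllide reductase (CL902.Contig1), the light-driven step of chlorophyll synthesis, stood at 54.3 and 58.0 CPM in uncut and cut leaf and at 4.85 and 6.57 in uncut and cut rhizome. The ChlH subunit of magnesium chelatase (Unigene1580), which commits porphyrin to chlorophyll, differed by -3.08 ± 0.48, and lycopene epsilon cyclase (Unigene10376), on the route to lutein, by -3.69 ± 0.77. PTC52 (Unigene8509), a chloroplast envelope protein, differed by -3.50 ± 0.71. In the nitrogen list 5 of 18 were lower, 1 was higher and 12 did not pass (3 and 2 under library totals). The chloroplast glutamine synthetase (Unigene10394), which recaptures photorespiratory ammonium, had 259 and 69 counts in uncut and cut leaf and 1 and 2 in uncut and cut rhizome. Its partner, ferredoxin-dependent glutamate synthase (Unigene1236), stood at 142.6 and 150.1 CPM in uncut and cut leaf and at 25.5 and 41.1 in uncut and cut rhizome, so leaf exceeded rhizome in both pairs. NADH-dependent glutamate synthase (CL388.Contig2) differed by -1.62 ± 0.45, and an ammonium transporter AMT3-1 (Unigene5243) had 53 and 23 counts in leaf and 0 in rhizome, at least 9.24-fold lower. Without the uncut rhizome library 6 of these 8 calls ended, with fitted differences of -1.77 to -7.95, the most negative being a feature at 0 in rhizome (Unigene5243), for which the fitted size depends on the prior count. Without cut rhizome 3 ended (-1.13 to -2.71), without uncut leaf 2 (-1.57 to -3.51, with 1 feature not tested) and without cut leaf 2 (-1.72 to -7.74).

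No starch gene passed as higher in rhizome. Of 31 tested features of starch synthesis and breakdown 7 were lower, 0 higher and 24 did not pass (median -0.36), and under library totals the balance turned, with 3 higher and 1 lower. Calls made up 22.6% of those tested, near the 20.0% over all features. Summed, the list stood at 2077 and 3276 CPM in uncut and cut leaf and at 1673 and 2479 in uncut and cut rhizome. ADP-glucose pyrophosphorylase small subunit 2 (CL297.Contig1), which makes the glucosyl donor for starch, stood at 28.0 and 66.0 CPM in uncut and cut leaf and at 4.85 and 13.1 in uncut and cut rhizome. Granule-bound starch synthase 2 (CL88.Contig2) stood at 41.28 and 52.03 CPM in uncut and cut leaf and at 7.28 and 11.49 in uncut and cut rhizome. Inactive beta-amylase 9 (CL1861.Contig2) and alpha-glucan water dikinase (Unigene6949), which marks starch for breakdown, differed by -2.39 ± 0.46 and -2.24 ± 0.52. Among sucrose and sugar transport features 10 of 37 were lower and 2 higher (5 and 5 under library totals). The monosaccharide transporter MST4 (Unigene9259) went from 602.9 and 900.5 CPM in uncut and cut leaf to 34.0 and 75.5 in uncut and cut rhizome, a fitted difference of -3.85 ± 0.42. Alkaline/neutral invertase E (CL370.Contig1), which splits sucrose, differed by -2.75 ± 0.62, and raffinose synthase (Unigene9471, galactinol--sucrose galactosyltransferase) by -2.28 ± 0.40. Apart from galactinol synthase, the 7 calls named here ended without uncut rhizome (-1.52 to -3.26). Of them 4 ended without cut rhizome (-2.59 to -3.40), 2 without cut leaf (-1.13 and -1.73), and 1 feature could not be tested without uncut leaf.

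Several lectins were higher in rhizome. Of 21 tested storage proteins and lectins 6 were higher in rhizome, 1 was lower and 14 did not pass (median 0.23; on log2(FPKM + 1) 5 were higher and 4 lower). The lectin CL1454.Contig2, a carbohydrate-binding protein, stood at 8.53 CPM in uncut leaf, 11.01 in cut leaf, 134.6 in uncut rhizome and 967.1 in cut rhizome. Both rhizome libraries exceeded both leaf libraries, and cut rhizome was the highest; the fitted log2 difference was 5.14 ± 0.68 (edgeR, adjusted p = 0.00233). A mannose-specific lectin (CL2458.Contig1), of the type stored in bulbs and corms of other monocots, stood at 57.0 and 6.003 CPM in uncut and cut leaf and at 247.4 and 195.4 in uncut and cut rhizome. The patatin-like protein 7 (Unigene1465), related to the tuber storage lipase of potato, differed by 2.64 ± 0.47, and the wall-bound germin-like protein 5-1 (Unigene4802) by -3.21 ± 0.56. Another 3 lectin features of that count were seen almost only in rhizome at low depth, a tuber lectin (Unigene9633, 8 and 12 counts in uncut and cut rhizome, 0 in leaf) and 2 mannose-specific lectins (Unigene10843 with 17 and 13 counts against 0, and Unigene2039 with 5 and 21 against 1 and 0). In the fermentation list 1 of 18 was higher and 1 lower (11.1% called, under the 20.0% over all features). They were lactate dehydrogenase B (Unigene10556), 1.54 ± 0.48, and an alcohol dehydrogenase superfamily member (Unigene323), -1.89 ± 0.44. Of these 6 called features, 5 lost the call without uncut rhizome (1.23 to 2.71 for those higher, -1.63 and -2.43 for those lower), 4 without cut leaf (1.27 to 5.97, and -1.09 for Unigene323), 3 without cut rhizome (1.84 and 2.96, and -2.43) and 3 without uncut leaf (1.71 to 5.55).

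The 15 described features ranked highest in rhizome had varied roles. UDP-arabinopyranose mutase 1 (CL640.Contig3), which makes the arabinose form used in wall polymers, had 79 counts in uncut rhizome, 76 in cut rhizome and 0 in both leaf libraries, at least 142-fold higher (adjusted p = 2.48e-05). Leucine-rich repeat extensin-like protein 3 (Unigene1769), of a family that anchors wall and membrane, stood at 0.682 and 4.002 CPM in uncut and cut leaf and at 94.6 and 187.2 in uncut and cut rhizome. Peroxidase 72 (CL1805.Contig1), a secreted peroxidase linked to lignin in Arabidopsis, had 0 and 2 counts in uncut and cut leaf and 33 and 58 in uncut and cut rhizome, a ratio of 125 (exact 95% counting interval 33.6 to 1050). Kiwellin (Unigene10807), a cysteine-rich defence protein, had 52 and 41 counts in uncut and cut rhizome and 0 in leaf, at least 85.0-fold higher. The flagellin receptor homologue FLS2 (Unigene6558), which senses bacteria, stood at 6.48 and 9.01 CPM in uncut and cut leaf and at 194.0 and 203.6 in uncut and cut rhizome. That difference of 4.70 ± 0.49 was close to equal in the pairs, with log2 ratios of 4.90 in the uncut and 4.50 in the cut pair. The transcription factor ERF027 (CL32.Contig1), of the ethylene response factor family, rose from 6.141 and 6.003 CPM in uncut and cut leaf to 172.2 and 149.4 in uncut and cut rhizome, 4.72 ± 0.50 with pair ratios of 4.81 and 4.64. A probable vacuolar amino acid transporter YPQ1 (Unigene10203) headed the ranking, with pair ratios of 5.68 in the uncut and 5.70 in the cut pair and 3.071 and 1.001 CPM in uncut and cut leaf against 157.6 and 156.0 in uncut and cut rhizome.

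Other leading features higher in rhizome were a probable Golgi methyltransferase PMT21 (CL752.Contig1, 5.99 ± 0.64), an annexin RJ4 (Unigene1476, a calcium-dependent membrane-binding protein, 4.67 ± 0.55), a GDSL lipase (Unigene10694, 5.31 ± 0.83) and a heavy metal-associated domain protein (CL2347.Contig1, 5.21 ± 0.93). A lipid transfer protein (CL80.Contig1) had 62 and 52 counts in uncut and cut rhizome and 2 and 6 in leaf (5.04 ± 0.69), and a related bifunctional inhibitor (Unigene3645) had 154 and 56 against 3 and 7 (5.49 ± 0.96). Unigene596, matched to a Wiskott-Aldrich protein, had 25 and 56 counts in uncut and cut rhizome and 0 in leaf, at least 74.0-fold higher. The calls of the GDSL lipase, the annexin, the lipid transfer protein, the bifunctional inhibitor and the metal-associated protein ended without uncut rhizome (4.90 to 5.84). Those of the GDSL lipase, the annexin and the metal-associated protein also ended without cut rhizome (4.11 to 5.14). The lectin CL1454.Contig2 lost its call without uncut leaf (5.55) or cut leaf (5.97). The other 9 held each time. DESeq2's Wald test did not call UDP-arabinopyranose mutase 1, Unigene596 or Kiwellin, all at 0 in leaf.

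Wall-loosening and pectin genes were more often higher than lower in rhizome. Of 26 tested expansins and xyloglucan enzymes 8 were higher and 2 lower (median 1.43), and of 34 pectin enzymes 9 were higher and 1 lower (median 1.38). On log2(FPKM + 1) the counts turned to 1 higher and 3 lower in each list, with medians 1.01 and 0.91 above that of all features. In the 8-library fit 1 expansin or xyloglucan feature was higher and 2 lower, and DESeq2's Wald test called 4 pectin features higher. Xyloglucan endotransglycosylase XET2 (Unigene774), which cuts and rejoins the tethers between cellulose fibres, stood at 12.28 and 8.004 CPM in uncut and cut leaf and at 114.0 and 67.3 in uncut and cut rhizome. XTH23 (CL732.Contig1) and expansin-like A1 (Unigene9361) differed by 2.25 ± 0.43 and 2.46 ± 0.44, while XTH30 (Unigene3935) went the other way, from 142.6 and 197.1 CPM in uncut and cut leaf to 6.06 and 8.21 in uncut and cut rhizome. The pectin methyltransferase QUA2 (Unigene1431), a Golgi enzyme needed for cell adhesion in Arabidopsis, stood at 12.28 and 6.003 CPM in uncut and cut leaf and at 110.3 and 57.5 in uncut and cut rhizome, with a fitted difference of 3.19 ± 0.47. Galacturonosyltransferase 15 (Unigene1421), of the family that builds the pectin backbone, differed by 2.91 ± 0.52. A polygalacturonase (Unigene10585), which cuts the backbone, differed by -3.65 ± 0.63. In the cellulose, xylan and callose list 21.7% of those tested were called, near the 20.0% over all features. Of the 23 features 3 were higher and 2 lower (10 and 2 under library totals, 0 and 2 on log2(FPKM + 1)). They include cellulose synthase-like H1 (Unigene3850, 206 and 91 counts in uncut and cut leaf, 3 and 0 in uncut and cut rhizome), cellulose synthase-like G2 (CL2433.Contig2, -3.12 ± 0.76) and a plasmodesmata callose-binding protein (Unigene3527, 2.04 ± 0.61). Of these 10 calls 7 ended without uncut rhizome (1.60 to 2.74 and -2.85 to -3.40), 3 without cut rhizome (1.82, 2.18 and -3.28), 2 without uncut leaf (1.07 and 2.16, with 1 feature not tested) and 1 without cut leaf (1.84).

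Phenolic and lipid genes were mixed. In the phenylpropanoid and lignin list 6 of 37 were lower and 1 higher (median -0.69; library totals gave 2 lower and 5 higher). That is 18.9% called, near the 20.0% over all features. Cinnamoyl-CoA reductase 1 (CL645.Contig4), the entry step to lignin alcohols, stood at 247.0 and 151.1 CPM in uncut and cut leaf and at 27.9 and 14.8 in uncut and cut rhizome. Caffeic acid O-methyltransferase CL177.Contig3, which methylates lignin precursors, differed by -2.49 ± 0.42, a like-described feature (Unigene3499) by -1.94 ± 0.44 and caffeoylshikimate esterase (Unigene65) by -1.73 ± 0.44. Of 11 tested O-methyltransferases, propenylphenol and terpene synthases 5 were lower and 1 higher (median -1.70), a list drawn for the aromatic oil of sweet flag. Propenylphenol synthase 1 (Unigene10471), of a family that makes the side chain of phenylpropenes, had 77 and 62 counts in uncut and cut leaf and 3 and 12 in uncut and cut rhizome, and terpene synthase 10 (Unigene3932) had 126 and 40 against 1 and 6. A trans-resveratrol di-O-methyltransferase (CL1010.Contig2) differed by -3.37 ± 0.84. Of 14 class III peroxidases 4 were higher and 3 lower (3 and 8 on log2(FPKM + 1)). Besides peroxidase 72, peroxidase 31 (Unigene9182) differed by 3.26 ± 0.48, peroxidase 4 (Unigene9558) by -3.22 ± 0.71 and peroxidase 12 (CL2375.Contig2) by -2.98 ± 0.76. Lipid-transfer, cutin and wax features split into 8 higher and 10 lower of 42 (17 and 5 under library totals; median 0.70). ECERIFERUM 3 (Unigene6904), a wax alkane enzyme of the leaf surface, had 199 and 48 counts in uncut and cut leaf and 2 and 3 in uncut and cut rhizome. All 11 calls other than peroxidase 72 ended without uncut rhizome (2.70 for peroxidase 31, -1.08 to -8.32 for the rest). Of these 4 ended without cut rhizome (-1.59 to -3.50), 4 without uncut leaf (-1.68 to -3.02, with 2 not tested) and 3 without cut leaf (-1.27 to -2.81).

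Auxin genes were more often higher than lower in rhizome, in tissue that all grew on auxin. Of 39 tested 12 were higher in rhizome, 5 lower and 22 did not pass (median 0.58); library totals gave 17 and 4, but log2(FPKM + 1) gave 1 higher and 11 lower. The repressor IAA27 (CL646.Contig2), of the Aux/IAA family that holds auxin response factors in check, stood at 33.78 and 44.02 CPM in uncut and cut leaf and at 294.7 and 180.6 in uncut and cut rhizome, 2.60 ± 0.45. IAA16 (Unigene5917) and IAA10 (Unigene3804), of the same family, were lower, differing by -2.68 ± 0.44 and -2.24 ± 0.45. The auxin efflux carrier CL600.Contig2, which moves auxin out of cells, went from 184.2 and 76.0 CPM in uncut and cut leaf to 12.1 and 4.93 in uncut and cut rhizome. Picked out after their values were seen, the 12 higher features included 7 described as auxin response factors 6, 8, 15 and 19 and the conjugating enzyme GH3.2 (Unigene6256). The number of auxin response factors tested is not given here. Contigs of a cluster can share reads, so the 7 may not be separate genes. None of these was named by rule, and their calls with a library left out are not given here. The second contig of ARF6 (CL1096.Contig2) had 47 and 40 counts in uncut and cut leaf and 77 and 50 in uncut and cut rhizome, in libraries that are shallower. Of 16 cytokinin genes 2 were higher and 1 lower (0 and 2 on log2(FPKM + 1)), the lower being the activating enzyme LOG (Unigene1700, -2.07 ± 0.55). Calls made up 18.8% of the cytokinin genes tested, near the 20.0% over all features. Of 24 gibberellin and GRAS genes 2 were higher and 4 lower (3 and 2 under library totals). Gibberellin-regulated protein 3 (CL1018.Contig1), a small secreted peptide, had 584 and 69 counts in uncut and cut leaf and 5 and 3 in uncut and cut rhizome. Scarecrow-like 21 (CL951.Contig2) differed by 2.90 ± 0.50, and scarecrow-like 4 (Unigene10774) and 8 (Unigene1373) differed by -2.36 ± 0.57 and -1.38 ± 0.44. All 9 calls ended without uncut rhizome (2.11 and 2.28, and -1.26 to -4.69). Of these 5 ended without cut rhizome (-1.46 to -3.38), 3 without uncut leaf (2.32, -1.78 and -2.08) and 3 without cut leaf (-1.14 to -2.14).

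Of 8 tested genes of abscisic acid, the hormone of drought and dormancy, 5 were lower in rhizome, 0 were higher and 3 did not pass (median -2.04). DESeq2's Wald test left 2 lower and the 8-library fit 1, with 0 higher in either, and library totals and log2(FPKM + 1) kept that direction (4 and 6 lower, 0 higher in either). The 9-cis-epoxycarotenoid dioxygenase Unigene10574, the committed step of its synthesis, had 157 and 174 counts in uncut and cut leaf and 1 and 9 in uncut and cut rhizome, 53.6 and 174.1 CPM against 1.21 and 14.8. An ABI5-like factor (CL1459.Contig1) that acts in the response, the inactivating abscisic acid 8'-hydroxylase 1 (Unigene7284) and an abscisic stress-ripening protein (CL315.Contig3) were lower as well. The first pair differed by -2.75 ± 0.52 and -2.54 ± 0.53, and the third had 89 and 16 counts in uncut and cut leaf and 2 and 0 in uncut and cut rhizome, a ratio of 19.2 (exact 95% counting interval 5.17 to 160.0). Of 50 ethylene and ERF features 5 were higher and 8 lower (13 and 3 under library totals). ACC oxidase 3 (CL1708.Contig2), which releases ethylene, went from 2518 and 1947 CPM in uncut and cut leaf to 293.4 and 389.1 in uncut and cut rhizome. ERF011 (Unigene1557) differed by -2.57 ± 0.39 and an ERF-like protein (CL1848.Contig2) by -2.24 ± 0.62, while ERF027 stood on the rhizome side. Of 22 jasmonate features 7 were lower and 1 higher (4 and 5 under library totals). The 13-lipoxygenase Unigene2688, the first step of jasmonate synthesis, had 91 and 49 counts in uncut and cut leaf and 3 in each rhizome library. Of 2 later reductases, 12-oxophytodienoate reductase 11 (CL534.Contig2) differed by -2.24 ± 0.54 and reductase 5 (Unigene9247) by -1.62 ± 0.52, and a jasmonate-induced protein (Unigene6545) had 56 and 20 counts in leaf and 0 in rhizome, at least 9.24-fold lower. All 11 calls other than ERF027 ended without uncut rhizome (-1.93 to -8.16). Of these 5 ended without cut rhizome (-1.41 to -3.20), 4 without cut leaf (-1.82 to -7.82) and 2 without uncut leaf (-0.89 and -2.10, with 2 not tested).

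Transcription factors of the WRKY, NAC, MYB and bHLH families were more often lower than higher: 26 of 86 tested were lower and 8 higher (median -0.76), although library totals gave 12 lower and 15 higher. The leading 4 were NAC factors, plant-specific regulators known from leaf ageing and stress. NAC92 (Unigene4917) had 201 and 95 counts in uncut and cut leaf and 1 and 2 in uncut and cut rhizome. NAC29 (CL1684.Contig2) had 227 and 82 against 1 and 1. NAC21/22 (Unigene5991) and NAC83 (Unigene2414) differed by -4.58 ± 0.60 and -3.55 ± 0.49. Homeobox and meristem factors went both ways, with 7 of 35 higher and 12 lower (median -0.91; 10 and 5 under library totals). The leaf side held HOX6 (Unigene2067, 257 and 59 counts in uncut and cut leaf, 0 and 2 in rhizome), HOX20 (CL1298.Contig2, 166 and 79 against 7 and 0), a BEL1 homologue (Unigene5008, 63 and 40 against 0, at least 12.5-fold lower) and knotted-1-like 3 (Unigene9627, -2.86 ± 0.55). The rhizome side held knotted-like genes, the class that keeps the shoot meristem undifferentiated; these had under 50 counts in every library and were picked out after their values were seen. Knotted-1-like 2 (CL2425.Contig1) had 34 and 16 counts in uncut and cut rhizome and 0 in leaf, its second contig (CL2425.Contig2) had 13 and 12 against 2 and 0, LET6 (CL135.Contig1) had 11 and 5 against 0, and SBH1 (CL135.Contig2) had 18 and 10 against 0. These 4 contigs belong to clusters CL2425 and CL135. Contigs of a cluster can share reads, so they may not be 4 separate genes. They entered the test through their rhizome counts, so their low counts in leaf are not a separate check. HOX9 (Unigene2458), with 31 and 16 counts in uncut and cut leaf and 92 and 35 in uncut and cut rhizome, was the member of the list higher in rhizome that reached 50 counts.

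Calls among genes of cell division were close to the share over all features, at 3 of 20 in the cell cycle list and 5 of 27 in the histone and replication list against 20.0%. Of 20 cell cycle features 2 were higher and 1 lower (0 and 2 on log2(FPKM + 1)), the lower being the cyclin-dependent kinase inhibitor SMR1 (Unigene3890, 73 and 56 counts in uncut and cut leaf, 0 and 5 in uncut and cut rhizome). Of 27 histone and replication features 2 were higher and 3 lower (5 and 1 under library totals). Histone H3.3 (Unigene1449), the replication-independent form, stood at 180.5 and 543.3 CPM in uncut and cut leaf and at 44.9 and 101.8 in uncut and cut rhizome. Histones H1 (Unigene1577) and H2B.11 (CL1257.Contig5) differed by -1.66 ± 0.43 and -1.41 ± 0.43. Among these 12 factors and division genes 8 calls ended without uncut rhizome, NAC21/22, NAC83, knotted-1-like 3, the BEL1 homologue, SMR1 and the 3 histones (-0.79 to -8.52). SMR1 and the histones also ended without cut leaf (-0.89 to -2.76), the histones without cut rhizome (-2.06 to -2.96), and histones H1 and H2B.11 without uncut leaf (-2.11 and -1.84).

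Of 15 aquaporins, the water channels of cell membranes, 8 were lower in rhizome, 1 was higher and 6 did not pass (median -2.32; 8 lower and 4 higher under library totals). The tonoplast channel TIP1-2 (Unigene10187) went from 777.2 and 1279 CPM in uncut and cut leaf to 59.4 and 75.5 in uncut and cut rhizome, a fitted difference of -3.89 ± 0.40. The plasma membrane channel PIP2-2 (CL1050.Contig1) stood at 431.9 and 666.3 CPM in uncut and cut leaf and at 55.8 and 41.1 in uncut and cut rhizome, and PIP2-7 (CL2613.Contig2) differed by -3.68 ± 0.88. PIP-type 7a (CL496.Contig1) had 132 and 195 counts in uncut and cut leaf and 2 and 1 in uncut and cut rhizome, a ratio of 39.8 (exact 95% counting interval 13.5 to 194). The exception was PIP2-8 (CL498.Contig4), picked out after its values were seen, with 64 and 33 counts in uncut and cut leaf and 160 and 56 in uncut and cut rhizome. Of 12 dehydrins and late embryogenesis proteins 4 were lower, 0 higher and 8 did not pass (median -1.38). Late embryogenesis abundant protein 2 (CL837.Contig2), a hydrophilic protein that protects drying cells, stood at 1090 and 2559 CPM in uncut and cut leaf and at 57.0 and 111.7 in uncut and cut rhizome. Dehydrin Rab18 (CL1434.Contig2) stood at 581.7 CPM in uncut and 6470 in cut leaf and at 101.9 in uncut and 993.4 in cut rhizome. Its difference between cut and uncut libraries was not tested. The late embryogenesis protein At1g64065 (Unigene8401) differed by -2.33 ± 0.72.

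Of 52 heat shock proteins 6 were lower and 0 higher (3 and 8 under library totals), among them RbcX2 and the chloroplast stromal HSP70 (CL2119.Contig3, -1.62 ± 0.44). Calls made up a smaller share of the heat shock list than the 20.0% over all features. The share called lower was close to the 11.6% over all features. Of 36 metal-binding features 7 were lower and 5 higher (3 and 9 under library totals). A metallothionein (Unigene4665), a small metal chelator, stood at 320.7 and 85.0 CPM in uncut and cut leaf and at 23.0 and 1.64 in uncut and cut rhizome. Isoprenylated metal-binding proteins 26 (CL1978.Contig1) and 3 (CL1319.Contig2) differed by -1.92 ± 0.38 and 1.48 ± 0.43. Among the 11 aquaporins, stress and metal proteins named by rule, 10 calls ended without uncut rhizome (1.38 for isoprenylated protein 3, -1.21 to -6.83 for the others), PIP2-2 being the exception. Without cut rhizome 7 ended (1.66, and -1.61 to -5.53), without uncut leaf 5 (1.43, and -2.22 to -3.69, with 1 not tested) and without cut leaf 5 (1.39, and -0.12 to -2.40, the first of these being Rab18).

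Cytosolic ribosomal proteins, which build the protein-making machinery, were more often higher than lower in rhizome: 31 of 220 tested were higher and 3 lower, with 186 not past the threshold (median 0.73). Calls in either direction made up 15.5% of those tested, under the 20.0% over all features, of which 8.37% were higher. The count depends on the scaling: library totals gave 114 higher and 1 lower and log2(FPKM + 1) gave 1 higher and 14 lower (median 0.41 above that of all features). It also depends on the test, with 4 higher by DESeq2's Wald test, 8 without the block of cutting state and 0 in the 8-library fit. The 60S protein L34 (CL1759.Contig2) stood at 100.3 and 119.1 CPM in uncut and cut leaf and at 379.5 and 376.0 in uncut and cut rhizome, and the 40S protein S7 (CL1506.Contig3) at 38.9 and 34.0 against 144.3 and 116.6. Ribosomal protein L4/L1e (Unigene7134) and an L18a-like protein (Unigene8516) were lower, with differences of -3.61 ± 0.60 and -2.20 ± 0.71.

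Defence proteins and protease inhibitors moved in both directions, 14 of 44 higher and 8 lower (median 0.23; on log2(FPKM + 1) 3 higher and 12 lower). Chitinase 1 (CL499.Contig1), which breaks down fungal walls, stood at 3.753 and 5.003 CPM in uncut and cut leaf and at 30.3 and 90.3 in uncut and cut rhizome, 3.51 ± 0.56. The cysteine protease inhibitors split, inhibitor B (Unigene3694) at 2.37 ± 0.43 and inhibitor 1 (Unigene5233) at -3.06 ± 0.55. Of 35 senescence and protease features 3 were higher and 5 lower (5 and 0 under library totals). That is 22.9% called, near the 20.0% over all features. The subtilisin-like protease SBT1.5 (Unigene5029) and the aspartic proteinase PCS1 (Unigene6097) differed by 2.60 ± 0.48 and 2.18 ± 0.50, and cysteine proteinase 1 (Unigene8163) by -2.01 ± 0.47. The autophagy protein ATG8C (Unigene6145) had 56 and 21 counts in uncut and cut leaf and 3 and 0 in uncut and cut rhizome. Root and vascular markers gave 1 higher and 1 lower of 3, the lower being phloem protein 2-like A1 (Unigene8437, -3.0 ± 0.67). Of 2 stomatal and epidermal markers neither passed, and the more abundant of them, the actin-binding protein SCAB1 (Unigene7169), stood at 20.1 and 36.0 CPM in uncut and cut leaf and at 18.2 and 14.8 in uncut and cut rhizome (adjusted p = 0.442). Counting the 4 ribosomal proteins, 12 features were named by rule in these groups, and 10 lost the call without uncut rhizome (1.73 to 2.43 and -1.52 to -7.92), chitinase 1 and SBT1.5 being the exceptions. Without cut rhizome 9 ended (1.84 to 2.37 and -2.39 to -2.73), without cut leaf 5 (1.62 to 1.86 and -2.39 and -3.26) and without uncut leaf 4 (1.57 and 1.83, -1.67 and -3.01, with 2 not tested).

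**Figure D3:**
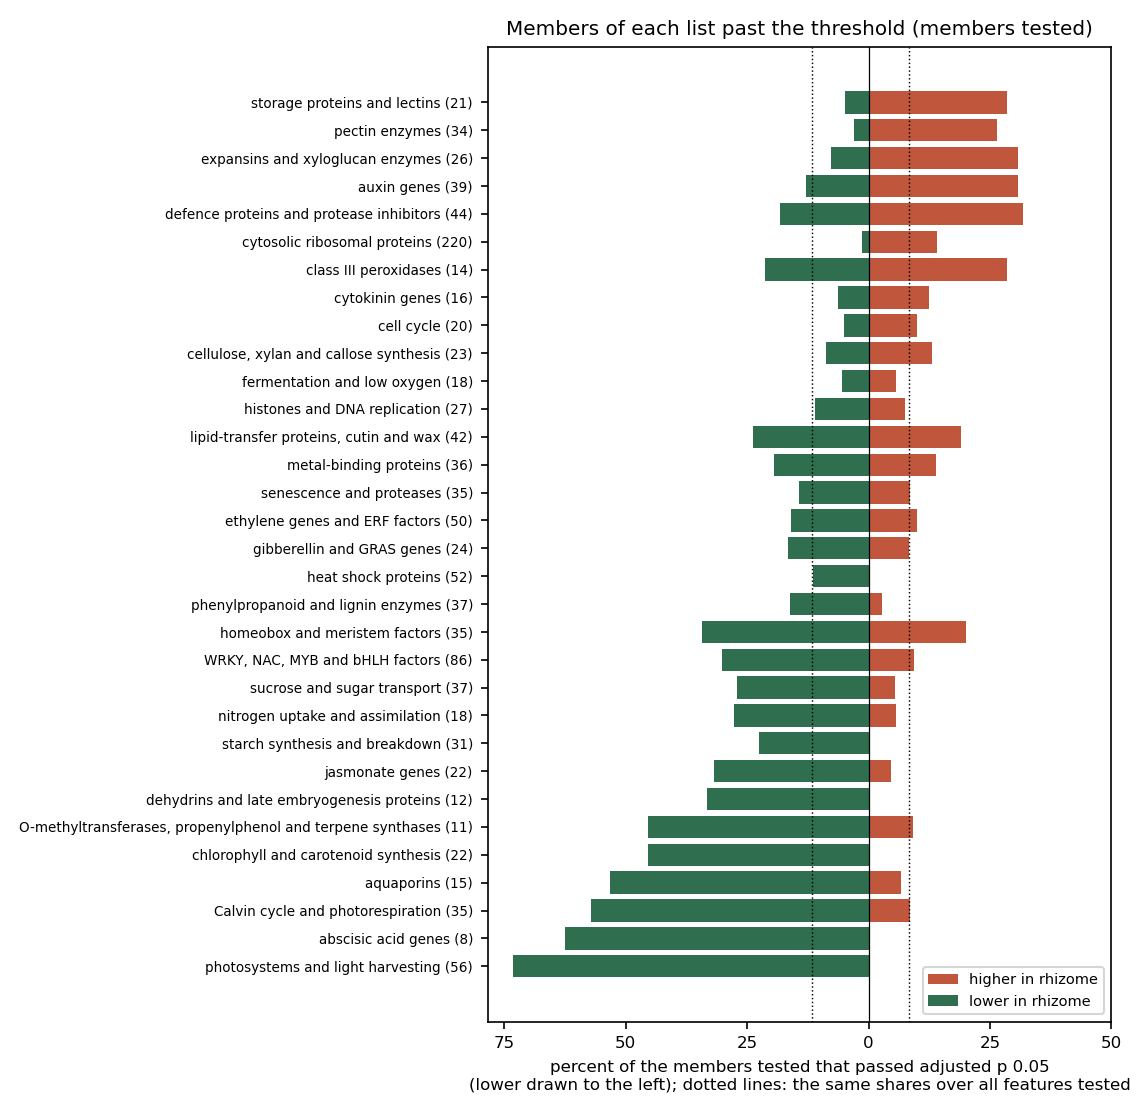
Share of the tested members of each list called higher (red, to the right) or lower (green, to the left) in rhizome by the edgeR test, for the 32 lists with at least 8 members tested; dotted lines give the shares over all features, 8.37% higher and 11.6% lower. Photosystems reach furthest to the left, with 41 of 56 lower, and the defence list reaches furthest to the right, with 14 of 44 higher, followed by the expansin and auxin lists. On log2(FPKM + 1), a scale that includes ribosomal RNA in the library count, these 3 lists have more members lower than higher.

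The same contrast at 4 days is the nearest comparison. The uncut rhizome library at 4 days was shallow by earlier results of these data, and its part in the 4-day values was not tested. Fitted over all 8 libraries, rhizome against leaf gave 29 features higher (0.246% of 11810) and 164 lower (1.39%) at 4 days, and 166 higher and 292 lower at a month (3.88% in all). Of the 1026 members lower at a month, 145 were called lower at 4 days and 0 higher, with a median log2 difference of -1.81 at 4 days. Of the 285 members higher at a month, 4 were called higher at 4 days and 0 lower, with a median of 0.68. The test of the difference between times, the tissue by time term, called 0 of 11810 features with edgeR (0.0%; 583 at an unadjusted p under 0.05) and 19 with DESeq2's Wald test, so the larger number of calls at a month is not shown to be a change over time. Leaving out the uncut 4-day pair gave 243 calls of that term and leaving out the cut 4-day pair 126, against 3 and 16 without the uncut and the cut month pair.

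Of the 11 photosynthesis features named above, 10 passed as lower in rhizome at 4 days and Rubisco small chain did not (-6.13 ± 1.31; edgeR, adjusted p = 0.0579). Rubisco activase differed by -6.03 ± 0.86 (adjusted p = 0.00838), CP12-1 by -5.60 ± 0.99 (adjusted p = 0.00851) and chlorophyll a-b binding protein 8 by -5.54 ± 0.92 (adjusted p = 0.00838), all from edgeR's 8-library fit. On the rhizome side, the transporter YPQ1 (3.33 ± 0.75, adjusted p = 0.029), peroxidase 72 (5.48 ± 1.09, adjusted p = 0.0159) and the lectin CL1454.Contig2 (4.81 ± 0.87, adjusted p = 0.00874) passed at 4 days by the same fit. Other leading features did not: UDP-arabinopyranose mutase 1, Kiwellin and the GDSL lipase Unigene10694 stood at -0.53 ± 0.94, -1.23 ± 1.01 and -2.08 ± 1.05 at 4 days. Each had 0 counts in the shallow uncut rhizome library at 4 days, and 68, 16 and 23 counts in cut rhizome. Cut leaf at 4 days had 42, 16 and 52. These features had adjusted p of 0.0909, 0.0909 and 0.25 for the difference between times in edgeR. The aquaporin TIP1-2 stood at 0.03 ± 0.85 and cinnamoyl-CoA reductase 1 at 0.28 ± 0.62 at 4 days, with adjusted p of 0.541 and 0.417 for the difference in the same fit. None of these differences between times passed the threshold.

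**Figure D4:**
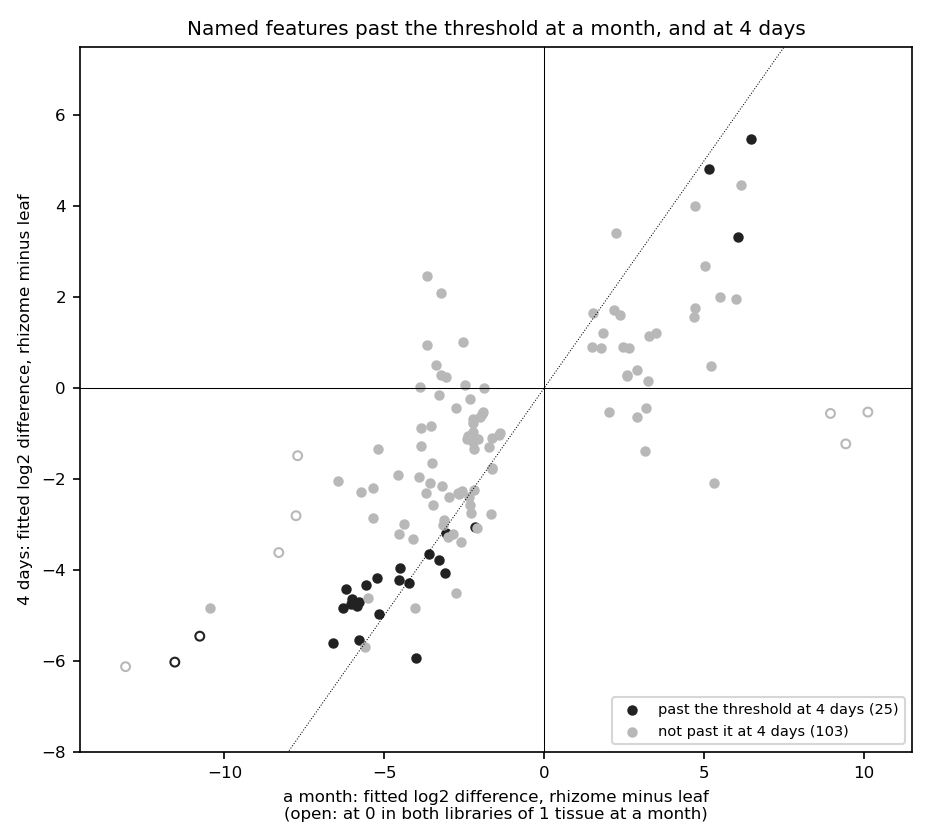
Fitted log2 difference, rhizome minus leaf, at a month (horizontal) and at 4 days (vertical, from the 8-library fit) for the 128 named features called at a month; the dotted line marks equal values and open symbols the 9 features with no count in 1 tissue at a month, whose horizontal value depends on the fit. In all 110 have the same sign at both times, and 25 are past the threshold at 4 days (black), 22 lower and 3 higher.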

How the data were processed

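Per the labels' protocols, total RNA was extracted from each tissue, oligo dT selected or depleted of ribosomal RNA (which of these is not given), and sequenced after random priming. Per the submitters' processing notes Bowtie2 and RSEM were used; versions and strand setting are not given in the sources used here. The authors deposited 1 table per library with expected counts, FPKM and feature length; expected counts, estimated by the authors and not normalized, were rounded to whole numbers, and the deposited FPKM served as an alternative. Features that a table does not list got a count of 0 in that library. The deposited FPKM values follow the full library count, ribosomal RNA included.

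The 44 features whose nucleotide match names ribosomal RNA were left out, 10 of them named for proteins acting on it or a mitochondrial gene. Fits used edgeR 4.0.16 (filterByExpr, TMM, robust quasi-likelihood; common biological coefficient of variation 0.343) with cutting state as the block; alternatives used limma 3.58.1 and DESeq2 1.42.0 in R 4.3.3. The replicate numbers pair nothing; the pairs come from the cutting state. The 8-library fit has 3 residual degrees of freedom. Each ± value is an approximate standard error, the absolute log2 difference over the square root of the edgeR F statistic. It becomes unstable where counts are near 0. In data simulated on 8117 features of the month comparison, 95 of 99 features changed by 4 on the log2 scale and 31 of 90 changed by 2 were called, and 0 of 7928 unchanged ones. The simulation gave every feature the same coefficient of variation, 0.343, and changed few features. It therefore does not measure the error rate of the calls in the real libraries.

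CPM is the count per 1e6 counts of the TMM-scaled library. Pair ratios take a count under 3 as 3 in each library; a fold against a tissue at 0 takes 3 counts over both its libraries, and intervals cover counting error only. Features of 1 cluster (same CL number), gene families such as Rubisco small chain, and overlapping or antisense genes can share reads, so their split is uncertain.

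Named features are described, called, alike in both pairs and at 50 counts: the 15 per direction with the largest smaller pair ratio, up to 4 per list on the same rank (in a list with none, its most abundant member), and up to 5 per direction moving opposite ways. The members and the 34 lists, drawn by words in the descriptions, were chosen with earlier results of these data known. No sequences were used here.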

Additional observations from a re-analysis of the deposited data

Results flagged for a closer look

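Of the 5665 features with at least 50 counts, 9 were at least 4-fold apart in opposite directions in the 2 pairs. The difference between the pairs was not tested, since each pair holds 1 library a tissue, and the 10 described features below, up to 5 a direction with the largest smaller ratio, are given as log2 ratios of rhizome over leaf.

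In the uncut pair rhizome was higher and in the cut pair lower for 5 described features. Flavanone 3-dioxygenase 3 (Unigene8785) stood at 2.15 and -2.96 in the uncut and cut pair, with 64 of its counts in cut leaf. The plastid ATP synthase alpha subunit (CL733.Contig1) stood at 2.03 and -1.96, with 112 and 128 counts in uncut and cut leaf and 129 and 20 in uncut and cut rhizome. MYB39 (Unigene19583) stood at 1.83 and -3.09, with 56 counts in cut leaf and 4 in each other library. ERF061 (Unigene5496) stood at 3.93 and -1.51, with 137 counts in uncut rhizome and 6 in cut rhizome. A putative membrane protein (CL1541.Contig1) stood at 1.33 and -4.82, with no count in cut rhizome.

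In the uncut pair rhizome was lower and in the cut pair higher for another 5. An EF-Ts domain protein (CL147.Contig2) stood at -3.12 and 3.04, with 93 counts in uncut leaf, 15 in cut rhizome and 0 in the other libraries. A pyridine nucleotide-disulfide oxidoreductase (CL1342.Contig2) stood at -2.56 and 3.77. The clock-related protein LNK3 (CL255.Contig3) stood at -2.44 and 3.38, pre-mRNA-splicing factor 38 (Unigene2045) at -2.56 and 2.30, and PERK9 (Unigene1294) at -2.30 and 2.17.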

How the results depend on the processing

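The number of features called, 1851, moved by over 1.5 times under DESeq2's Wald test (851), in the fit over all 8 libraries (458) and on log2(FPKM + 0.1) (3304), and ranged from 243 to 1122 with 1 library left out, where tissue alone was fitted on 3 libraries and the lone one is assumed to vary like the others. It stayed within 1.5 times of 1851 for DESeq2 size factors, library totals, both count filters, ribosomal RNA kept, organelle features or Unigene19161 left out, log2(FPKM + 1), thinning, summed contigs and, chosen after seeing the data, a removed trend with feature length. Without the replicate block of cutting state 1262 features were called; 866 of the 1311 called members were among them, against 668 with DESeq2 and 339 in the 8-library fit.

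The number past the 4-fold rule, 592, became 287 after thinning, 917 with no count minimum and 1444 on log2(FPKM + 0.1), and 912 to 1252 with 1 library, and so its pair, left out. The difference between times, with 0 calls, gave 19 with DESeq2, 30 with no count filter and 3 to 243 with a pair left out. Calls over all lists went from 380 to 217 with DESeq2. Of the 129 named features, 36 lost the call with DESeq2, 61 in the 8-library fit, 23 under library totals, 18 on log2(FPKM + 1) and 20 without the block. With 1 library left out 27 of 119 lost it without uncut leaf, 89 without uncut rhizome, 33 without cut leaf and 49 without cut rhizome. Unigene7169, which did not pass, changed sign under library totals (0.05). The cause of these shifts was not tested. An offset for per-table feature length was not run, as lengths are the same in every table.

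Depth limits rhizome most: there 3 counts equal 3.64 CPM in uncut and 4.93 CPM in cut rhizome.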
